A study of Mus musculus with 7 samples.

Results

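The genes described are the ligands and receptors of the axon guidance families: the semaphorins of classes 3 to 7, plexins, neuropilins, ephrins, Eph receptors, Slits, Robos, netrins and Unc5 receptors. They were chosen by symbol alone, without use of their values, and made up 68 of the 24421 gene symbols in the deposited count table. Messenger RNA was counted from 3' ends in 7 libraries of sorted mouse stromal cells. The 3 pCAF libraries came from cancer-associated fibroblasts of BALB/c mice, labelled 8 weeks of age. These mice carried a tumor of 1 cm grown from 100000 4T1-luc cells, a luciferase-labelled mouse mammary carcinoma line, placed in the mammary fat pad. Cells were sorted as Ter119-, CD45-, EpCAM- and PDPN+, which leaves out red cells, leukocytes and epithelium and keeps podoplanin-positive cells; the selection field of pCAF replicate 3 reads PDPN-, against its source name. The 4 NMF libraries came from the normal mammary fat pad of untreated BALB/c mice, labelled 12 weeks of age although the design text calls the groups age matched. These cells passed the same negative gates with no PDPN gate, so that NMF was open to other non-immune stromal cells, and tumor and fat pad were digested with different collagenases. The labels say biological replicates but name no animals, so p-values measure only the spread between these libraries.

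Guidance cues are secreted or membrane-bound proteins that attract or repel the growing tips of axons through receptors on the cell surface. Slits act through Robo receptors, netrins through Dcc, neogenin and Unc5 receptors, semaphorins through plexins with or without neuropilins, and ephrins through Eph receptor kinases. The same families steer the sprouting of blood vessels, and Slit2 with Robo1 and netrin-1 with neogenin are known for holding cell layers together in the developing mouse mammary duct.

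Of the 68 genes, 4 had no count in any library (Efna3, Epha5, Epha6 and Robo2), 45 had enough counts to be tested and 23, these 4 among them, were left untested. A gene was called where the adjusted p of edgeR's quasi-likelihood F test, adjusted by Benjamini and Hochberg's method across the 10535 genes tested, was under 0.05. By this rule 7 of the 45 tested guidance genes were higher in pCAF (15.6%) and 10 were lower (22.2%), while 14.3% of all tested genes were higher and 14.2% lower. Either way 37.8% of the guidance genes were called, against 28.4% of all tested genes, and 21 of the 45 (46.7%) had an unadjusted p under 0.05, against 40.1% of all tested genes. The median log2 fold change, pCAF over NMF, was -0.40 over the 45 guidance genes and -0.02 over all tested genes. With scaling by library totals in place of TMM factors these medians were -0.62 and -0.26, and 37.1% of all calls were higher in pCAF, against 50.2% with TMM. The groups did not overlap for 6 guidance genes with pCAF above NMF and 12 with pCAF below, and over all tested genes this held for 19.0% and 21.4%, or 40.4% either way. The plot of fold changes shows that changes in both directions occurred within the Robos, semaphorins and plexins.

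**Figure D1:**
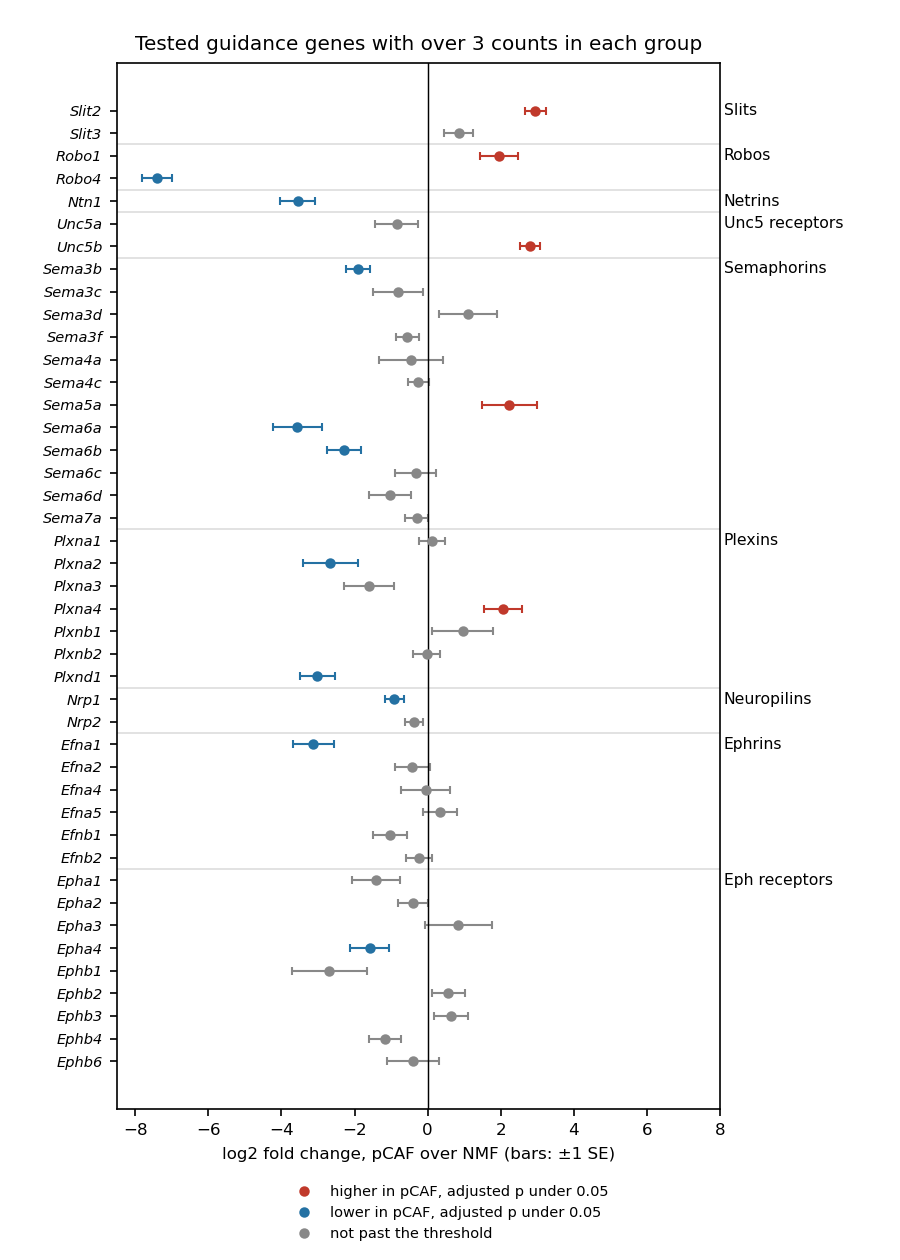
Log2 fold change, pCAF over NMF, of 43 tested guidance genes with over 3 counts in each group, by family; bars are 1 standard error, red marks genes higher in pCAF, blue genes lower in pCAF and grey genes that did not pass an adjusted p of 0.05. Robo4 stands farthest to the left at -7.40 and Slit2 farthest to the right at 2.94; Slit1 and Unc5c, with 0 and 1 NMF counts, are not drawn.

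The start regions of 4 called genes are shown because the series as a whole concerns DNA methylation and the factor RUNX1, and because 3 of these genes rose and the fourth, Plxnd1, fell. Each run holds the 250 bases before the RefSeq start on GRCm38.p6, read 5′ to 3′ on the gene's strand, with CpG dinucleotides, the sites of DNA methylation, in capitals. The windows are chr5:47982905-47983154 on the plus strand for Slit2, chr10:60831582-60831831 on the minus strand for Unc5b, chr16:72662899-72663148 on the plus strand for Robo1 and chr6:115995006-115995255 on the minus strand for Plxnd1. The Robo1 gene spans chr16:72308306-73046095, so its window lies before a RefSeq start inside the gene and not at the gene's first base.
Slit2: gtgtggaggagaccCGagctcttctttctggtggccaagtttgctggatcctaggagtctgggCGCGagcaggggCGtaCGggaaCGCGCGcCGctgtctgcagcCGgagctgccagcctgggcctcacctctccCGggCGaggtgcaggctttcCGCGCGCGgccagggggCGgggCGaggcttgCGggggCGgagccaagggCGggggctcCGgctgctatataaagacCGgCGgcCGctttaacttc
Unc5b: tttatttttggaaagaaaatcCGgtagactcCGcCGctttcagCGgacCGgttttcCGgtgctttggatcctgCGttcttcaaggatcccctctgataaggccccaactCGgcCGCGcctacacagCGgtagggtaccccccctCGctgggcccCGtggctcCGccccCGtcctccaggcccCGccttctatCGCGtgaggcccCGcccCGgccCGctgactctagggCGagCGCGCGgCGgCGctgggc
Robo1: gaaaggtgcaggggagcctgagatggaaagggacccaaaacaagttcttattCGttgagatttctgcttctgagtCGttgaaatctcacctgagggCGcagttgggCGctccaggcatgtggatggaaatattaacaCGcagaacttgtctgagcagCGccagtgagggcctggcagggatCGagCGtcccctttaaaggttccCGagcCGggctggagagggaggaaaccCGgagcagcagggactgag
Plxnd1: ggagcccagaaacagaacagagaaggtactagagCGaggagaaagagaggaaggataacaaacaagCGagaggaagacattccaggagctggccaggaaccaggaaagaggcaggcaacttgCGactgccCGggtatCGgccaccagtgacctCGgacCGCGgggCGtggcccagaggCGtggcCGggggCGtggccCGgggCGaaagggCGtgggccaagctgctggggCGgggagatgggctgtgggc
Slit2 held 25 CpGs in this window, Unc5b 27, Robo1 11 and Plxnd1 16, and their GC contents were 69.6%, 66.8%, 56.0% and 64.8%. Over 32851 RefSeq windows of the same length the median was 6 CpGs (quartiles 2 and 16) and 52.4% GC. These 4 windows thus held more CpGs than the median window, but not every called gene did. The window of Robo4, a lower gene, held 2 CpGs and 49.6% GC. Sema6b, also lower, had a window with 5 CpGs and another with 20. All other windows of called genes held at least 11 CpGs. Many CpGs were not particular to called genes. Of the guidance genes not called, Sema3c had 39 CpGs in its window, Slit3 35 and Nrp2 32, while Sema3d had 4. The RUNX core TGTGGT, searched on both strands, was in the windows of 1 of 5 higher genes with a RefSeq window (Unc5c), 0 of 7 lower ones and 4 of 26 that were not called; it was in 14.05% of all windows. The ETS core GGAAGT, also on both strands, was in 1 of the 5 higher (again Unc5c), 1 of the 7 lower (Sema6b) and 5 of the 26 not called, against 19.7% of all windows. A gene was counted if any of its windows matched, while the shares of all windows count each window alone, so the 2 measures are not alike. These matches describe letters only. Of the RUNX genes and their partner Cbfb, 3 of 3 tested were higher in pCAF, against 14.3% of all tested genes. Any link from them to the guidance genes was not tested.

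Total counts ran from 1885039 to 2184389 per pCAF library and from 2223198 to 4990070 per NMF library, and 47 to 59 of the guidance genes had a count in each library. Values below are CPM, counts relative to the library total scaled by TMM factors; since 3'-end counts are not proportional to transcript length, levels of different genes were set side by side on this scale. Libraries pCAF 1 and NMF 4 stood apart from the others of their groups. The chi-square per degree of freedom was 3.22 between pCAF 2 and 3 but 39.98 and 42.2 between these and pCAF 1, and it was 6.47 to 10.1 among NMF 1 to 3 but 35.6 to 39.8 with NMF 4. With both left out, all 17 calls among the guidance genes were kept and 12 were added, giving 13 higher and 16 lower. The share called was then 63.0% of the 46 guidance genes tested and 52.7% of all tested genes, so that calls became more frequent across the whole table. Both libraries were singled out from these same counts, so fits that leave out either give no separate support to a call. The median log2 fold change without both was -0.68 over the guidance genes and -0.041 over all tested genes. Of 11 fibroblast markers, all tested, 5 were higher in pCAF (Col1a1, Col1a2, Col3a1, Lum and the gate gene Pdpn) and 1 was lower, Dpt, at 2.85-fold. Dcn, which was not called, was below NMF in every pCAF library, and Pdgfra had a log2 fold change of 0.049. Their sum, carried by the 3 collagens, was 73448 to 83129.7 CPM in pCAF and 26462 to 46322 CPM in NMF. The transcript of the gate marker, Pdpn, had 987, 281 and 384 CPM in pCAF 1 to 3, against 49.4, 46.02, 58.4 and 44.1 CPM in NMF 1 to 4, so that pCAF 3 lay with its group.

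Markers of other cell types differed between the groups. Blood endothelial markers were lower in pCAF for 20 of 20 genes, with a sum of 252 to 448 CPM in pCAF and 4815 to 8019 CPM in NMF, and Sox17 had no count in pCAF. Schwann and nerve markers were lower for 5 of 6 tested genes (16.6 to 31.6 CPM in pCAF, 266 to 1039 CPM in NMF), with Sox10, Gfap and Cdh19 at 0 in pCAF. Adipocyte markers were lower for 4 of 4 tested genes (0 to 2.77 CPM in pCAF, 72.6 to 139 CPM in NMF), with Plin1, Cidec, Cidea, Lep and Pck1 at 0 in pCAF. Mural cell markers, tested for 8 genes, held 1 higher and 3 lower (261 to 436 CPM in pCAF, 375 to 569.97 CPM in NMF). Leukocyte markers were lower for 3 of 6 tested genes (28.8 to 65.9 CPM in pCAF, 21.7 to 235 CPM in NMF), with Ptprc and Cd79a at 0 in pCAF, and epithelial markers for 3 of 7 (107 to 262 CPM in pCAF, 186 to 557 CPM in NMF), with Krt5 at 0 in pCAF. Lymphatic endothelial markers, tested for 3 genes, held 1 higher and 1 lower (23.3 to 46.8 CPM in pCAF, 32.4 to 78.8 CPM in NMF), with Ccl21a at 0 in both groups. The part of these cells in the changes of guidance genes was not tested. In bulk samples, fewer cells of a type and less RNA per cell cannot be told apart.

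**Figure D2:**
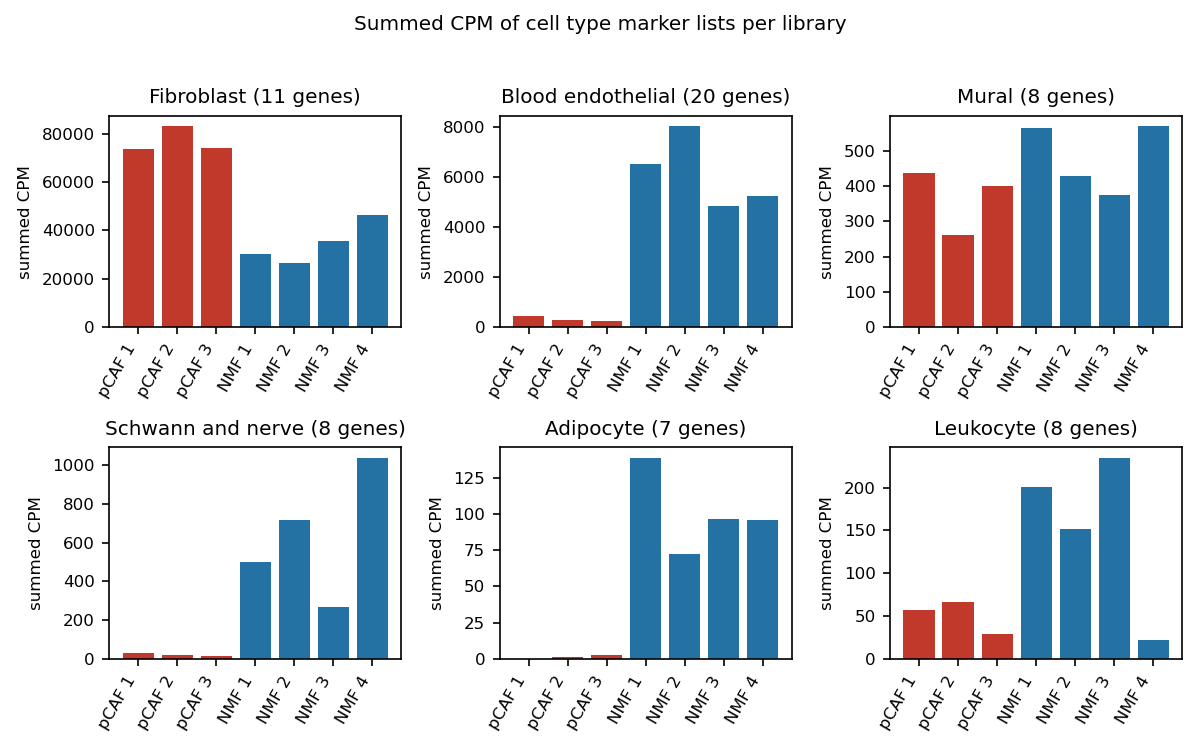
Summed CPM of marker lists of 6 cell types in each library, pCAF in red and NMF in blue, with the number of genes in each list; axes start at 0. The fibroblast sum, carried by Col1a1, Col1a2 and Col3a1, was higher in all 3 pCAF libraries than in any NMF library although only 5 of the 11 genes were called higher, while blood endothelial markers stayed at or under 448 CPM in pCAF and were at or above 4815 CPM in NMF.

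Of the 3 Slits, the secreted ligands of Robo receptors, Slit1 and Slit2 were higher in pCAF, and Slit3 did not pass the test over all 7 libraries. Slit2 (chr5:47983138-48307733, mm10), the best known of the family, had 91.5, 139 and 118 CPM in pCAF, against 18.9, 13.5, 15.8 and 12.3 CPM in NMF. Its lowest pCAF library was thus far above its highest NMF library. The means were 116 ± 23.9 CPM in pCAF and 15.2 ± 2.91 CPM in NMF (SD, n = 3 and 4), 7.68-fold higher in pCAF (log2 fold change 2.94, SE 0.28, adjusted p = 7.93e-05).

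Slit1 (chr19:41600257-41743665), in mammals chiefly known from the nervous system, had 56.01, 22.5 and 14.97 CPM in pCAF and no count in any NMF library. The 168 pCAF counts against 0 NMF counts made it at least 137-fold higher in pCAF (adjusted p = 6.95e-04), where the bound sets the whole NMF group at 3 counts, or 0.228 CPM, the limit that no count allows. Without pCAF 1, which held the most Slit1, the bound was 82.1-fold, and without NMF 4, the deepest library, it was 81.1-fold. Intervals and floors of this kind cover counting error only.

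Slit3 was the most abundant Slit in every library, with 172, 509 and 614 CPM in pCAF and 272, 192, 211 and 286 CPM in NMF. pCAF 2 and 3 lay above all NMF libraries, and pCAF 1 lay below all 4. The mean was 432 ± 231 CPM in pCAF and 239.9 ± 45.6 CPM in NMF, and the difference did not pass the test (log2 fold change 0.85, SE 0.39, adjusted p = 0.134). It did pass without pCAF 1 (1.22, adjusted p = 0.00283) and without pCAF 1 and NMF 4 together (1.31, adjusted p = 1.43e-05). Both fits leave out pCAF 1, the library that went the other way, so they are no separate support for a rise. Slit3 made up 53.9%, 75.9% and 82.2% of the Slit counts in pCAF and 93.01% to 95.9% in NMF.

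Of the Slit receptors, Robo1 was higher and Robo4 lower in pCAF, so that a different Robo was the main one in each group. Robo1, the receptor that binds Slits directly, had 6.65, 19.2 and 19.95 CPM in pCAF, against 2.704, 4.22, 4.58 and 4.11 CPM in NMF. Every pCAF library was above every NMF library, with pCAF 1 nearest to them. Robo1 was 3.86-fold higher in pCAF (log2 fold change 1.95, SE 0.52, adjusted p = 0.0176). The call was lost without pCAF 2 (adjusted p = 0.0802), without pCAF 3 (0.0845) and without NMF 1 (0.0547).

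Robo4 (chr9:37401897-37415115), the Robo of endothelial cells, had 1.11, 1.69 and 0.554 CPM in pCAF, against 197, 239, 172 and 178 CPM in NMF. These were 1 to 3 counts in each pCAF library and 488 to 953 counts in each NMF library. Robo4 was 169-fold lower in pCAF (log2 fold change -7.40, SE 0.41, adjusted p = 2.07e-05), and it moved with the blood endothelial markers given above, whose part in its change was not tested. Robo3 had 1 count in all, in NMF 4. Robo1 made up 85.7% to 97.3% of the Robo counts in pCAF and 1.36% to 2.59% in NMF. The summed level of the Slits was 319.99, 670.3 and 747 CPM in pCAF and 290.5, 205, 227 and 298 CPM in NMF, and that of the Robos was 7.76, 20.8 and 20.5 CPM in pCAF and 199, 244, 176 and 182 CPM in NMF. The plot of Slit, Robo, netrin and Unc5 transcripts shows these sums by member.

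**Figure D3:**
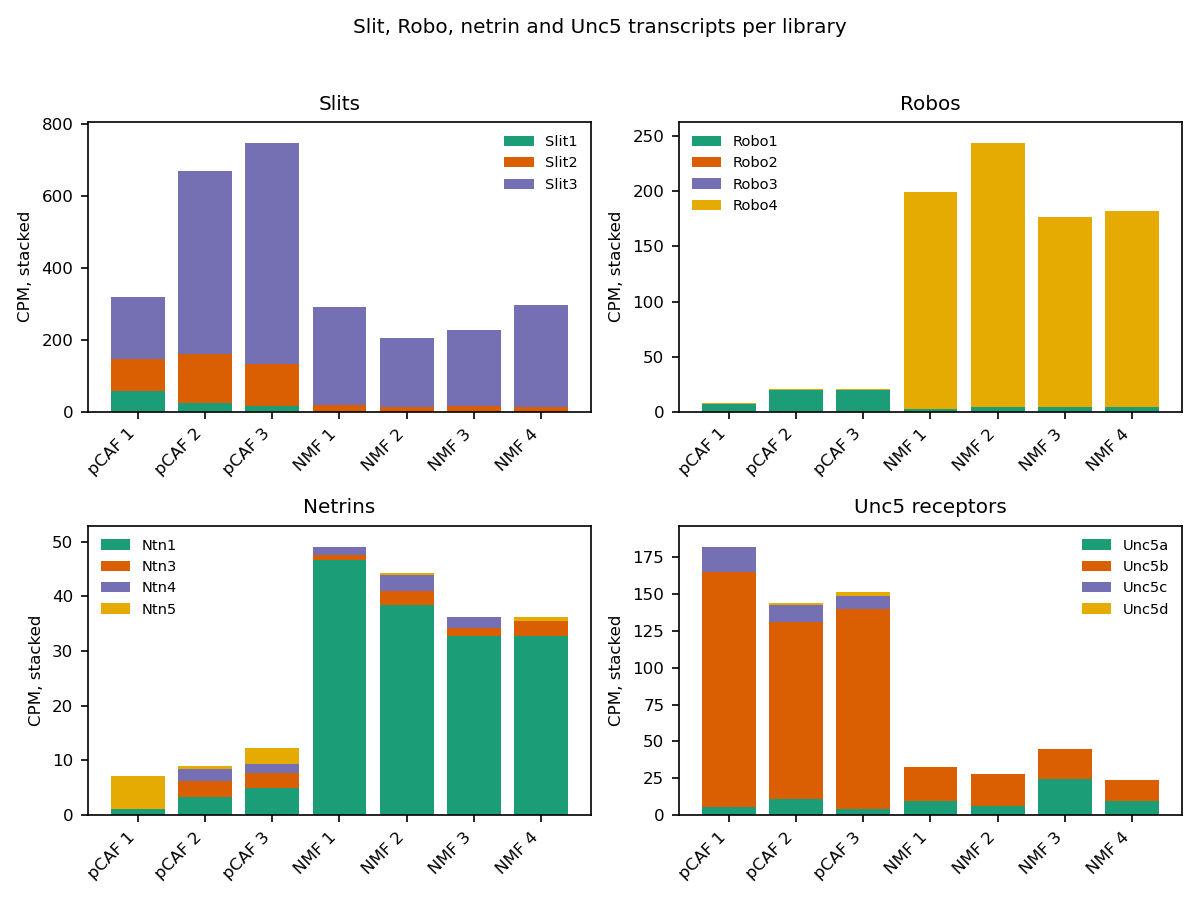
Stacked CPM of the Slits, Robos, netrins and Unc5 receptors in each library, pCAF on the left and NMF on the right of each panel. Slits and Unc5 receptors were highest in pCAF libraries and Robos and netrins in NMF libraries; the Robo bars of NMF are nearly all Robo4 and the netrin bars of NMF mostly Ntn1.

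In the netrin branch the 1 tested ligand fell and 2 of 3 tested Unc5 receptors rose. Netrin-1, encoded by Ntn1 (chr11:68209364-68400823) and secreted, had 1.11, 3.38 and 4.99 CPM in pCAF, against 46.7, 38.4, 32.7 and 32.7 CPM in NMF. All pCAF libraries were well below all NMF libraries. The means were 3.16 ± 1.95 CPM in pCAF and 37.6 ± 6.63 CPM in NMF, 11.7-fold lower in pCAF (log2 fold change -3.55, SE 0.48, adjusted p = 5.22e-04). The other netrins had too few counts to be tested. Ntn3 had 0, 5 and 5 counts in pCAF and 2, 6, 4 and 15 counts in NMF, Ntn4 had 0, 4 and 3 counts in pCAF and 4, 7, 6 and 0 counts in NMF, and Ntn5 had 11, 1 and 5 counts in pCAF and 0, 1, 0 and 4 counts in NMF. Ntn5 overlaps Sec1 on the other strand near its 3' end, as do Unc5a with Hk3 and Ephb4 with Zan, and with the strand setting not given their counts are uncertain.

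Unc5b (chr10:60762593-60831581), a netrin receptor of neurons and of vessels, had 159, 121 and 135 CPM in pCAF, against 22.8, 21.5, 20.8 and 14.01 CPM in NMF. It was 7.02-fold higher in pCAF (138 ± 19.5 CPM in pCAF, 19.8 ± 3.93 CPM in NMF, log2 fold change 2.81, SE 0.27, adjusted p = 7.93e-05). Every pCAF library was far above every NMF library. Blood endothelial markers were lower in pCAF, and the part of these cells in the change of Unc5b was not tested. Unc5c (chr3:141465216-141834924), known from repulsion of axons by netrin-1, had 17.2, 11.3 and 8.87 CPM in pCAF, against 0.386 CPM in NMF 1 and no count in the other 3 NMF libraries. From 67 pCAF counts and 1 NMF count the ratio was 164, with an exact 95% counting interval of 28.4 to 6562 (adjusted p = 5.23e-04). Without NMF 4 the ratio was 97.1, with an interval of 16.8 to 3890.4, and without NMF 1 the group had no count and Unc5c was at least 43.8-fold higher in pCAF. Unc5a did not pass the test (log2 fold change -0.85, SE 0.59, adjusted p = 0.315), and Unc5d had 0, 2 and 5 counts in pCAF and none in NMF. The summed Unc5 level was 182, 144 and 151 CPM in pCAF and 32.8, 27.9, 45.1 and 23.5 CPM in NMF. Dcc, the netrin receptor that attracts axons, had no count in any library. Neo1, which encodes neogenin, had means of 17.9 CPM in pCAF and 25.3 CPM in NMF and did not pass the test (log2 fold change -0.50, SE 0.51, adjusted p = 0.504).

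**Figure D4:**
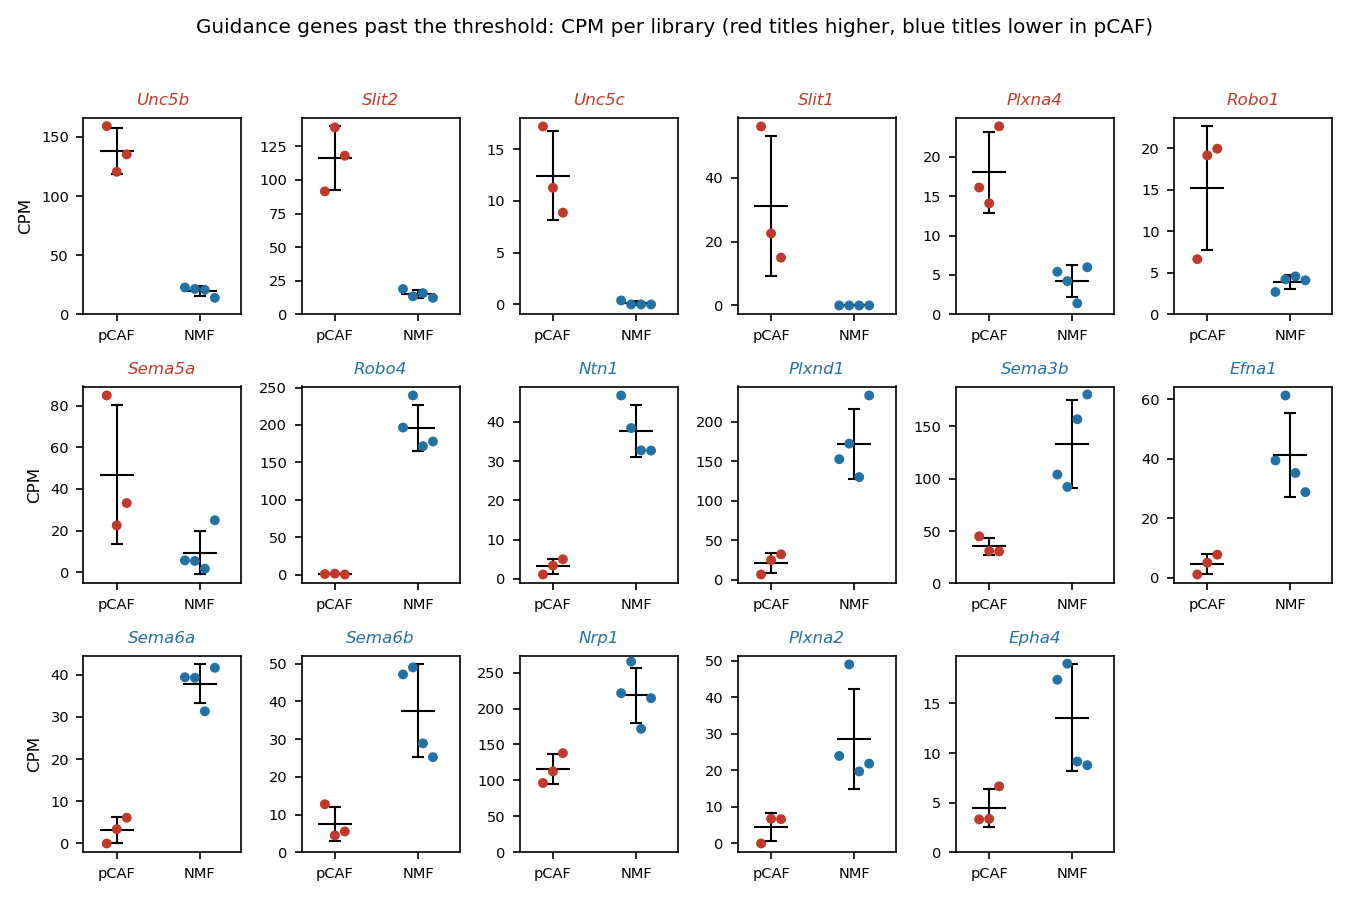
CPM per library of the 17 guidance genes with an adjusted p under 0.05, pCAF in red on the left and NMF in blue on the right of each panel; lines are the mean and 1 SD (n = 3 and 4), and each panel has its own axis. The groups do not overlap for 16 of the 17, which were picked because they differed. In Sema5a, NMF 4 at 25.03 CPM lies above pCAF 2 at 22.5 CPM. Of all 45 tested guidance genes the groups did not overlap for 6 with pCAF above and 12 with pCAF below. Over all tested genes, 40.4% did not overlap either way.

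Of the 20 semaphorins, 12 were tested, and 1 was higher and 3 were lower in pCAF. The lower ones were Sema3b, a secreted ligand of neuropilin and plexin receptors, and Sema6a and Sema6b, membrane-bound ligands of class A plexins. Sema3b had 44.9, 30.98 and 30.5 CPM in pCAF, against 104, 92.05, 157 and 180.2 CPM in NMF. It was 3.76-fold lower in pCAF (log2 fold change -1.91, SE 0.33, adjusted p = 0.00211), with no overlap of the groups.

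Sema6a had 0, 3.38 and 6.097 CPM in pCAF, against 39.4, 39.3, 31.3 and 41.6 CPM in NMF. It was 11.8-fold lower in pCAF (log2 fold change -3.57, SE 0.67, adjusted p = 0.00326), and 21.9-fold lower without pCAF 3, the pCAF library with the most Sema6a. Sema6b had 12.8, 4.51 and 5.54 CPM in pCAF, against 47.1, 48.98, 28.9 and 25.2 CPM in NMF. It was 4.89-fold lower in pCAF (log2 fold change -2.29, SE 0.47, adjusted p = 0.00518) and 7.38-fold lower without pCAF 1. Without pCAF 1 and NMF 4 together Sema6a was 7.68-fold and Sema6b 8.23-fold lower.

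Sema5a, a membrane semaphorin with thrombospondin repeats, had 84.8, 22.5 and 33.3 CPM in pCAF, against 5.79, 5.49, 1.76 and 25.03 CPM in NMF. pCAF 1 was the highest library and NMF 4 reached the range of pCAF. It was 4.695-fold higher in pCAF (log2 fold change 2.23, SE 0.75, adjusted p = 0.0484). The call was lost without pCAF 1 (2.74-fold, adjusted p = 0.148), pCAF 3 (0.0622), NMF 1 (0.131), NMF 2 (0.129) or NMF 3 (0.0909). It held without NMF 4 (11.03-fold, adjusted p = 0.00667) and without pCAF 1 and NMF 4 together (6.42-fold, adjusted p = 3.09e-05). Both of these fits leave out the NMF library that reached the range of pCAF.

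The semaphorins with the highest mean levels, Sema7a and Sema3c, did not pass the test. Sema7a, a membrane-anchored semaphorin that binds integrins and Plxnc1, had 199, 209.5 and 163 CPM in pCAF and 181, 377, 181 and 201 CPM in NMF (log2 fold change -0.30, SE 0.32, adjusted p = 0.518). Sema3c, secreted and acting through both neuropilins, had 271, 27.04 and 37.7 CPM in pCAF and 121, 188, 203 and 269 CPM in NMF. pCAF 1 was as high as the highest NMF library, while pCAF 2 and 3 were below all NMF libraries. Over all libraries the log2 fold change was -0.81 (SE 0.69, adjusted p = 0.423). It was -2.60 without pCAF 1 (6.06-fold lower, adjusted p = 4.97e-04) and -2.41 without pCAF 1 and NMF 4 together (adjusted p = 9.35e-07). Here too both fits leave out the pCAF library that went the other way. The semaphorin plot shows pCAF 1 also apart from pCAF 2 and 3 in Sema3d and Sema6c. The 8 tested semaphorins that were not called had log2 fold changes from -1.03 (Sema6d) to 1.11 (Sema3d), with adjusted p from 0.205 to 0.739. Without pCAF 1, Sema3d turned to -1.02 (adjusted p = 0.169) and Sema6c, at -0.33 over all libraries, was called lower at -1.69 (adjusted p = 0.00161).

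**Figure D5:**
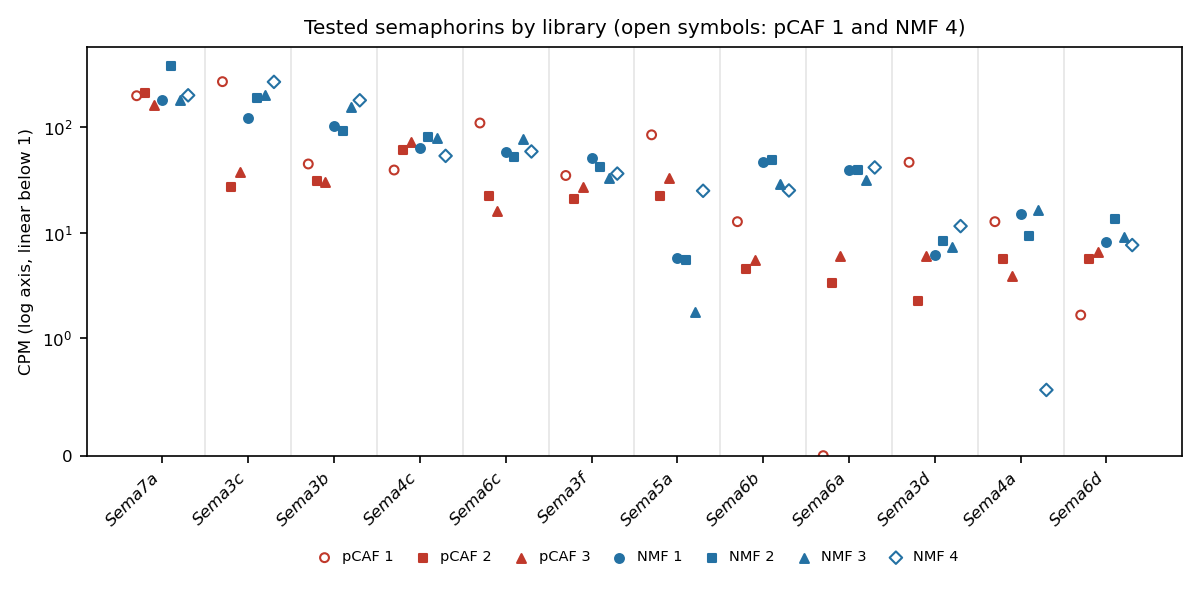
CPM of the 12 tested semaphorins in each library, ordered by mean level, on a log axis that is linear below 1; pCAF is red and NMF blue, and open symbols mark pCAF 1 and NMF 4. Sema3c reads 271 CPM in pCAF 1 against 27.04 and 37.7 CPM in pCAF 2 and 3, while Sema3b, Sema6a and Sema6b are lower in all 3 pCAF libraries than in any NMF library.

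A further 6 semaphorins had at least 20 counts but were left untested by the filter. Sema3a, the class 3 repellent that signals through Nrp1, had 6, 13 and 9 counts in pCAF, against 1, 1, 0 and 0 counts in NMF. Its ratio was 34.2, with a 95% counting interval of 8.63 to 296; it was 20.3 without NMF 4, 54.95 without NMF 1 and 56.1 without NMF 2. Sema3e, the ligand of Plxnd1, had no count in pCAF and 3, 1, 3 and 29 counts in NMF, mostly in NMF 4. Sema3g, known from arterial endothelium, had no count in pCAF and 9, 12, 6 and 1 counts in NMF. Sema4b had 9, 5 and 5 counts in pCAF and 8, 5, 4 and 10 counts in NMF, Sema4d had 0, 2 and 0 counts in pCAF and 8, 11, 4 and 0 counts in NMF, and Sema4g had 0, 6 and 5 counts in pCAF and 6, 3, 7 and 35 counts in NMF. Sema4f and Sema5b had 13 counts or fewer in all libraries together.

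Of the 9 plexins, the semaphorin receptors, 7 were tested, and 1 was higher and 2 were lower in pCAF. Plxnd1, the receptor through which Sema3e acts on endothelial cells, had 6.65, 24.8 and 32.1 CPM in pCAF, against 153, 172, 129.9 and 233 CPM in NMF. It was 8.11-fold lower in pCAF (log2 fold change -3.02, SE 0.48, adjusted p = 0.00134), and 5.34-fold lower without pCAF 1 and NMF 4 together. Plxna2, a receptor of class 6 semaphorins, had 0, 6.76 and 6.65 CPM in pCAF, against 23.9, 48.98, 19.7 and 21.9 CPM in NMF. It was 6.33-fold lower in pCAF (log2 fold change -2.66, SE 0.76, adjusted p = 0.0255). With limma-voom it was 11.01-fold lower (adjusted p = 0.0346). The call was lost without NMF 1 (adjusted p = 0.0566) or NMF 2 (0.0871).

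Plxna4, which takes part in Sema3a and Sema6 signalling, had 16.1, 14.1 and 23.8 CPM in pCAF, against 5.41, 4.22, 1.41 and 5.98 CPM in NMF. The groups did not overlap, and Plxna4 was 4.15-fold higher in pCAF (log2 fold change 2.05, SE 0.52, adjusted p = 0.01502). Without pCAF 3 the adjusted p was 0.0709. The most abundant plexin over all libraries, Plxnb2, had 53.2, 164 and 159 CPM in pCAF and 131, 97.96, 135 and 145 CPM in NMF (log2 fold change -0.020, SE 0.37, adjusted p = 0.975). Its log2 fold change turned to 0.34 without pCAF 1 and 0.40 without pCAF 1 and NMF 4 together. The 4 tested plexins that were not called had log2 fold changes from -1.60 (Plxna3) to 0.96 (Plxnb1), with adjusted p from 0.101 to 0.975. Plxnb1 turned to -0.41 without pCAF 1. Plxnd1 made up 4.76% to 9.62% of the plexin counts in pCAF and 33.7% to 45.1% in NMF. Of the untested plexins, Plxnb3 had no count in pCAF and 1, 6, 1 and 14 counts in NMF, and Plxnc1, the Sema7a receptor, had 2, 12 and 6 counts in pCAF and 3, 5, 3 and 22 counts in NMF.

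The neuropilins, short-tailed coreceptors of class 3 semaphorins and of VEGF, had moderate differences. Nrp1 had 96.5, 113 and 138 CPM in pCAF, against 221, 265, 172 and 214 CPM in NMF. The groups did not overlap, and Nrp1 was 1.88-fold lower in pCAF (log2 fold change -0.91, SE 0.26, adjusted p = 0.0244). The call was lost without pCAF 2 (adjusted p = 0.0850), NMF 1 (0.0639) or NMF 2 (0.0712). Nrp2 had 67.7, 88.4 and 73.2 CPM in pCAF and 114, 110.2, 85.5 and 86.3 CPM in NMF. Its groups overlapped and it did not pass the test (log2 fold change -0.37, SE 0.25, adjusted p = 0.296). Plxnd1 and Nrp1 are known to be made by endothelial cells, and both were lower in pCAF, as were the blood endothelial markers. Within the groups they did not always follow these markers. The marker sum was 448, 302 and 252 CPM in pCAF 1 to 3, the reverse order of both genes. Across the NMF libraries Nrp1 ran in the order of the sum and Plxnd1 did not. The part of endothelial cells in either change was not tested.

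Of the 8 ephrins and 14 Eph receptors, 1 ephrin and 1 receptor were called, both lower in pCAF. Efna1, a ligand of EphA receptors anchored by a lipid, had 1.11, 5.07 and 7.76 CPM in pCAF, against 39.4, 61.2, 35.2 and 28.8 CPM in NMF. It was 8.75-fold lower in pCAF (log2 fold change -3.13, SE 0.55, adjusted p = 0.00242). Epha4, a receptor that binds ephrins of both classes, had 3.33, 3.38 and 6.65 CPM in pCAF, against 17.4, 19.001, 9.15 and 8.78 CPM in NMF. It was 3.01-fold lower in pCAF (log2 fold change -1.59, SE 0.53, adjusted p = 0.0478). Its call was lost without any 1 of pCAF 1 (adjusted p = 0.0594), pCAF 2 (0.146), pCAF 3 (0.0560), NMF 1 (0.125), NMF 2 (0.132) or NMF 3 (0.0625), so that only leaving out NMF 4 kept it, and it held without pCAF 1 and NMF 4 together (0.00754).

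The most abundant ephrin was Efnb1, a membrane-spanning ligand of EphB receptors, with 39.9, 119 and 128 CPM in pCAF and 272, 236, 182 and 92.1 CPM in NMF. NMF 4 lay within the pCAF range, and the difference did not pass over all libraries (log2 fold change -1.03, SE 0.46, adjusted p = 0.124). Without pCAF 1 and NMF 4 together it was -0.91 with an adjusted p of 8.66e-04, in a fit that leaves out the NMF library within the pCAF range. Ephb3, the Eph receptor with the highest mean over the 7 libraries, had 83.7, 30.4 and 21.6 CPM in pCAF and 20.1, 21.96, 39.4 and 33.6 CPM in NMF (log2 fold change 0.65, SE 0.47, adjusted p = 0.339). pCAF 1 gave it this rank and its sign: the log2 fold change was -0.16 without pCAF 1 and -0.081 without pCAF 1 and NMF 4 together. In NMF the mean of Ephb4 was higher, at 42.6 CPM, against 28.8 CPM for Ephb3. The 5 tested ephrins not called had log2 fold changes from -1.03 (Efnb1) to 0.34 (Efna5), and the 8 tested Eph receptors not called ran from -2.69 (Ephb1) to 0.84 (Epha3). Efna5 turned to -0.14 without pCAF 3 and was called higher without pCAF 1 (adjusted p = 0.0308), and Epha3 ran from 0.37 to 1.40 with 1 library left out. Ephb1 had a low level, with 0, 3.38 and 0 CPM in pCAF and 6.57, 7.18, 3.87 and 11.95 CPM in NMF, and its groups did not overlap although its adjusted p was 0.0755. It was called lower by the DESeq2 test (adjusted p = 0.0237) and limma-voom (0.0309), and without pCAF 2, where pCAF had no count, it was at least 9.96-fold lower (0.0128). Efnb3, untested, had 0, 2 and 4 counts in pCAF and 3, 6, 7 and 60 counts in NMF. Epha7, Epha8 and Epha10 had 9 counts or fewer in all libraries together. Epha1 shares a near-identical 3' sequence with 2010010A06Rik, so its counts are uncertain.

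Of 83 further genes of these pathways, 63 were tested, and 9 were higher (14.3%) and 8 lower (12.7%) in pCAF, with a median log2 fold change of 0.00. Over all tested genes 14.3% were higher and 14.2% lower. Partner genes were thus called about as often as any tested gene, 27.0% against 28.4%. Among 16 tested ligands and coreceptors, Gpc1 and Chl1 were higher and L1cam and Kdr were lower. Gpc1, a heparan sulfate proteoglycan that binds Slits, had 307, 309.8 and 249 CPM in pCAF, against 15.1, 13.5, 20.4 and 5.79 CPM in NMF, 21.3-fold higher in pCAF (adjusted p = 6.07e-05). Chl1, an adhesion molecule of the L1 family, had 27.2, 43.4 and 41.02 CPM in pCAF, against 1.16, 2.11, 1.76 and 0.187 CPM in NMF, 30.3-fold higher in pCAF (adjusted p = 3.12e-04). Both were thus high in every pCAF library.

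L1cam, of the same family as Chl1 and made by Schwann cells and neurons, had 0, 0 and 1 counts in pCAF, against 33, 34, 27 and 89 counts in NMF. The ratio of NMF over pCAF was 74.9, with a 95% counting interval of 13.3 to 2974. It was 49.8 without pCAF 1, and without pCAF 3 L1cam was at least 16.6-fold lower in pCAF. It moved with the Schwann and nerve markers, whose part was not tested. Kdr, the VEGF receptor, is also in the endothelial list and had 16.6, 16.9 and 30.5 CPM in pCAF, against 246, 174, 75.7 and 169.9 CPM in NMF, 7.78-fold lower in pCAF (adjusted p = 9.57e-04).

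Among 47 tested intracellular effectors, 7 were higher and 6 lower. Mical2, an oxidase that acts on actin, had 176, 175 and 181 CPM in pCAF, against 13.5, 12.7, 21.8 and 12.5 CPM in NMF, 11.7-fold higher in pCAF (adjusted p = 3.69e-05). Rasa1, a Ras GTPase-activating protein, was 4.69-fold higher (46.6 ± 11.1 CPM in pCAF, 9.85 ± 1.54 CPM in NMF, adjusted p = 6.75e-04). The small GTPases Rhod and Cdc42 were 3.005-fold and 1.98-fold higher in pCAF (adjusted p = 0.00745 and 0.00953). Of the lower ones, Ablim1, an actin-binding protein, had 50.5, 27.6 and 27.7 CPM in pCAF, against 487, 421, 397 and 323 CPM in NMF, 11.5-fold lower in pCAF (adjusted p = 7.58e-05). Fyn, a Src-family kinase, was 5.35-fold lower (13.9 ± 7.29 CPM in pCAF, 74.9 ± 14.3 CPM in NMF, adjusted p = 0.00193). The RhoA activator Arhgef11 was 2.11-fold lower (adjusted p = 0.01199) and the kinase Abl1 3.48-fold lower (adjusted p = 0.0129) in pCAF.

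Over all families, the guidance genes summed to 1913, 2150.1 and 2272 CPM in pCAF and to 2593, 2785, 2407 and 2675 CPM in NMF. Of the 17 calls, 11 held in every alternative fit in which the gene was tested: Slit1, Slit2, Unc5b and Unc5c among the higher genes, and Robo4, Ntn1, Plxnd1, Sema3b, Sema6a, Sema6b and Efna1 among the lower.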

How the data were processed

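Messenger RNA was measured in 3 pCAF and 4 NMF libraries. The deposited table held raw counts per gene symbol, unscaled, for 24421 symbols. Per the labels' protocols, sequencing covered the 3' ends of polyadenylated transcripts. The tools named in the submitters' processing notes were bcl2fastq, HTSeq and STAR 2.4.2a, with the build mm10 and no role stated; the annotation, strand setting, treatment of multi-mapping reads and any molecular identifiers are not given in the sources used here. Groups follow the titles and source names, which keeps pCAF replicate 3 in pCAF.

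The test was that of edgeR 4.0.16 under R 4.3.3: filterByExpr by group (10535 genes), TMM factors, robust quasi-likelihood F test, two-sided, pCAF over NMF, with p-values adjusted across the 10535 genes by Benjamini and Hochberg's method and called under 0.05. Standard errors were the absolute log2 fold change over the square root of F. CPM used effective library sizes; 1 count was 0.187 to 0.563 CPM. For a fold against a group with no count, that group as a whole was set at 3 counts (0.557 CPM in pCAF, 0.228 CPM in NMF), and ratios with 1 to 3 counts have exact 95% intervals. Alternatives were other scalings, DESeq2 1.42.0, limma-voom (limma 3.58.1), other filters, thinning to 1885039 counts, a replicate block and libraries left out. The fits were also run on simulated counts with planted changes, to check the code. Each count was drawn independently, so libraries that stand apart, like pCAF 1 and NMF 4, were not covered.

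Values were printed for called genes, Sema3c, Nrp1, Nrp2, Slit2 and Slit3, the most abundant member of each family, untested members with at least 20 counts, and up to 4 called partner genes a direction in each list. Ephb1, Ephb4, Epha3, Efna5, Plxnb1, Sema3d, Sema6c, Unc5a, Unc5d, Robo3, Neo1, Pdpn, Dpt, Dcn and Pdgfra were named beyond this rule, after their values were seen. The members, lists and tests were chosen with earlier results of these data known. Positions came from GENCODE M21, which held all 68 genes; 3' ends (last 300 bp) were compared with blastn 2.17.0 for matches of at least 80 bp at 95% identity. Exons within the last 1000 bp overlapped another gene on the other strand for 6 genes and on the same strand for 0. Figures were drawn with matplotlib 3.10.9, and tables joined with pandas 2.3.3, under Python 3.11.15.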

Additional observations from a re-analysis of the deposited data

Results flagged for a closer look

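Dixon's test at the 95% level on log2(CPM + 0.5) set a single NMF library apart from the other 3 in 5 of 44 guidance genes tested for it. Its nominal rate is about 1 in 20. The share flagged over all genes is not given, so the 5 were not read as an excess. NMF 1 had 22.4 CPM of Efna4, an ephrin, against 10.3 to 11.4 CPM in the other NMF libraries. NMF 4 had 11.2 CPM of Epha2, the main receptor of ephrin-A1, against 20.3 to 21.8 CPM. NMF 3 had 23.2 CPM of Ephb4, a receptor of venous endothelium, against 47.3 to 51.5 CPM. NMF 2 had 377 CPM of Sema7a, against 181 to 201 CPM. NMF 1 had 0.386 CPM of Unc5c, which was 1 count, and the others had none. Any single count among libraries at 0 is flagged by this test, so that flag carries no information. The 3 pCAF libraries were too few for this test.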

How the results depend on the processing

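The count of guidance genes higher in pCAF, 7 in all libraries, was 3 where the filter asked for a mean of 10 CPM or more, 13 without pCAF 1 and NMF 4 together, and 4 to 9 with 1 library left out. The count of lower guidance genes, 10, was 16 without both libraries and 7 to 11 with 1 left out. Of all tested genes, 1503 were higher (978 with the replicate block, 2802 without both libraries, 1016 to 2021 with 1 left out) and 1491 lower (2913 without both, 979 to 2187 with 1 left out). Of the partner genes, 9 were higher (15 without both, 6 to 11 with 1 left out) and 8 lower (17 without both, 6 to 14 with 1 left out). The filter on 10 CPM tested 34 guidance genes, against 45 in the main fit. The causes of these shifts were not tested.

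Direction turned in 25 of 771 values of the guidance genes, over 12 genes, with no call in the values that turned or in the fit of all libraries. Of the 36 genes given with values by rule, 3 turned: Ephb3 had log2 fold changes of -0.16 (without pCAF 1) to 0.99 with 1 library left out and -0.081 without both, Plxnb2 had -0.25 to 0.34 (without pCAF 1) with 1 left out, being also above 0 without NMF 3 and NMF 4, and 0.40 without both, and Sema7a had -0.40 to 0.012 (without NMF 2) with 1 left out. Over 608 values of 36 named genes in 17 alternatives, 564 kept their direction and side of the threshold, 32 lost the call, 5 gained it and 7 turned. Beyond the lost calls given with single libraries, Sema5a lost its call with library totals (adjusted p = 0.0749), upper-quartile scaling (0.0515), no filter (0.0557) and the 10 CPM filter (0.0522), and Epha4 with limma-voom (0.117) and no filter (0.0610). DESeq2 called 20 guidance genes (44.4%) and 34.8% of all tested genes.

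Libraries of the same number did not deviate together (correlations -0.09, 0.08 and -0.01), so replicate numbers were not used as pairs. With the replicate block 12 of the 17 guidance calls were kept, and the adjusted p of Epha4 was 0.118, of Nrp1 0.0807, of Plxna2 0.0513, of Plxna4 0.0631, of Robo1 0.0725 and of Arhgef11, a partner gene, 0.0569. The 19 untested genes with counts were left out by the filter on low counts.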
